A study of Mus musculus with 119 samples.

Results

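The 8 genes Chrna3, Chrna4, Chrna5, Chrna6, Chrna7, Chrnb2, Chrnb3 and Chrnb4, which encode the neuronal nicotinic acetylcholine receptor subunits α3 to α7 and β2 to β4, were followed through 5 brain regions of mice given delta-9-tetrahydrocannabinol (THC) in adolescence. They were chosen by symbol, and all 8 were found among the 55291 gene symbols of the deposited tables. The regions were the prefrontal cortex (PFC), the punch called dorsal medial striatum (DMS) in the study's methods and dorsolateral striatum in the labels, the ventral tegmental area (VTA), the amygdala (Amy) and the nucleus accumbens (NAc). Females and males received vehicle (Veh: ethanol, tween and saline) or 10 mg/kg of THC by 1 intraperitoneal injection a day from postnatal day 28 to 48, behavioural tests began on day 63, and RNA was sequenced from tissue punches. The labels give no genetic modification. The labels name the strain C57BL/6J and an age of 11 weeks, whereas the methods name C57BL/6NCrl and a collection of the brains 1 week later. Each of the 20 groups held 6 libraries except the male vehicle VTA, which held 5, giving 119 libraries, of which 59 were vehicle and 60 were THC. Per the study's methods, the 5 regions were punched from the brains of 24 mice, so the libraries of a group come from separate mice and the 12 vehicle mice recur across regions. The labels do not say which libraries of different regions share a mouse, and the tests between regions therefore treated them as independent.

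Nicotinic receptors are pentameric cation channels opened by acetylcholine and nicotine. The α subunits α3, α4 and α6 form the binding site together with β2 or β4, α7 can assemble alone, and α5 and β3 join other subunits as accessory members. Receptors of α4 and β2 bind nicotine with high affinity throughout the brain, and α6 and β3 are known for midbrain dopaminergic neurons, whose axons carry these receptors to the striatum. The α3 and β4 subunits are best known from the medial habenula and autonomic ganglia, and α5 from deep layer cortical neurons and the VTA.

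On the mouse genome build GRCm38, 5 of the 8 genes lie in 2 short clusters. Chrna5 (plus strand, chr9:54980880-55007779), Chrna3 (minus strand, chr9:55010111-55026562) and Chrnb4 (minus strand, chr9:55028154-55048779) follow each other with gaps of 2331 and 1591 bases. Chrnb3 (plus strand, chr8:27368711-27399730) and Chrna6 (minus strand, chr8:27403212-27413944) end towards each other, 3481 bases apart. Chrna4 (minus strand, chr2:181018380-181043546), Chrna7 (minus strand, chr7:63098692-63212569) and Chrnb2 (minus strand, chr3:89746195-89764632) stand alone, and the 3′ end of Chrnb2 overlaps Adar on the plus strand. The library kit kept strand, but the strand setting of the counting was not given in the sources used here. All 8 genes had whole-number values in every library.

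RefSeq promoter windows (250 bases before to 50 after a start site, GRCm38.p6) were on hand for 6 of the members, with 2 start sites for Chrna5. Those of the chromosome 9 cluster are shown because its 3 genes differed in regional pattern, and those of Chrna4 and Chrnb2 because these abundant partners differed in how much they varied between regions. Capitals mark the GC box letters GGGCGG, or CCGCCC where the motif is on the other strand.
Chrna5, second start, plus strand, chr9:54981238-54981537: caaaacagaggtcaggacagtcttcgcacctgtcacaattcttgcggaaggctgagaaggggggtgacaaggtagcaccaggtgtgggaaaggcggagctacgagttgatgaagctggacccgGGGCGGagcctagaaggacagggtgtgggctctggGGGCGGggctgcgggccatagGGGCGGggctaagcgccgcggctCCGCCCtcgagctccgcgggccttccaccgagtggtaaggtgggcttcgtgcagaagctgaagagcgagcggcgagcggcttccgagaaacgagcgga
Chrna3, minus strand, chr9:55026513-55026812: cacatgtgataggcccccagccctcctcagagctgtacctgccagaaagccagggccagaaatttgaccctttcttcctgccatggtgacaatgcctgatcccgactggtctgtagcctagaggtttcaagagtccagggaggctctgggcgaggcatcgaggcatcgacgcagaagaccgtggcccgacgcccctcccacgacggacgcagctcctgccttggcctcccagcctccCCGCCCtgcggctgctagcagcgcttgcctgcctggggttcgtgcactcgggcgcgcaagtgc
Chrnb4, minus strand, chr9:55048495-55048794: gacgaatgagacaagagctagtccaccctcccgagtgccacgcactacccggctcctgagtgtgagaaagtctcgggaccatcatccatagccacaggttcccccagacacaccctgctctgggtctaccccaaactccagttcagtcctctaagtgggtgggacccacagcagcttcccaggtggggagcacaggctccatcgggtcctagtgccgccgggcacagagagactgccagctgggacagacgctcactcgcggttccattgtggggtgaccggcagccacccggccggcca
Chrna4, minus strand, chr2:181039128-181039427: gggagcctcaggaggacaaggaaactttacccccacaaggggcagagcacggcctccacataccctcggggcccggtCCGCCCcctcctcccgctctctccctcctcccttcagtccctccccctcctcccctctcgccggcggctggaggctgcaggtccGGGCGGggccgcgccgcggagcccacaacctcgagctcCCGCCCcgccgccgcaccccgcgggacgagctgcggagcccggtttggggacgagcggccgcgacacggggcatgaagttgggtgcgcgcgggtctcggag
Chrnb2, minus strand, chr3:89764583-89764882: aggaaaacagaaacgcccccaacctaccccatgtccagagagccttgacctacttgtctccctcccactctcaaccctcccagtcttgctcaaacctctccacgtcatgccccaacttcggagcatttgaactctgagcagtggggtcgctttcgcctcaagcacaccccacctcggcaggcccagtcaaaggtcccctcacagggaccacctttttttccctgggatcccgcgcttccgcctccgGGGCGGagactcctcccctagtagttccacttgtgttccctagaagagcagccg
The GC box was found 4 times in the second Chrna5 window, 3 times in that of Chrna4, once in those of Chrna3, Chrnb2 and Chrna7, and not in those of Chrnb4 and the first Chrna5 start. Of 32851 mouse promoter windows of this length, 35.7% held it. Neither the TATA box letters TATAAA (in 13.6% of windows) nor the letters AAAGGTCA, bound by receptors of the Nr4a family (in 1.51%), occurred on either strand in the 7 windows of the members. G and C made up 41.3% of the first Chrna5 window and between 59.0% and 74.3% of the other windows, against a median of 52.7% over all windows.

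Library totals ran from 3090998 to 77042133 expected counts, with a median of 22092612, and were most uneven in Amy and VTA. In Amy the median was 4.45e+07 in female THC and 2.69e+07 in female vehicle libraries. It was 1.28e+07 in male THC and 2.84e+07 in male vehicle libraries. The shallowest was male vehicle VTA library FTL_371. Per the study's methods, the authors left an outlier male VTA sample out of their own comparisons. The methods do not name that sample or its treatment, so whether it is FTL_371 is not known. All male VTA libraries in the deposited tables were kept in the main fits here. Marker genes matched the labelled regions: the 10 dopaminergic markers summed to between 1893 and 5923 CPM (counts scaled to the library total) in VTA libraries and to at most 104.9 CPM elsewhere, the 8 medium spiny neuron markers summed to between 2539 and 9401 CPM in DMS and NAc and, in the highest Amy library, to 2676 CPM, above the lowest NAc library, and the 7 cortical and basolateral amygdala projection neuron markers were highest in PFC. Libraries FTL_344, labelled female Amy THC, and FTL_356, labelled male Amy THC, had Xist and Y-linked transcripts against the labelled sex, and the THC comparisons in Amy are given with and without them. VTA libraries FTL_363 and FTL_368 (female THC) and FTL_371 stood apart by low dopaminergic markers, with list sums of 1893, 2508 and 2251 CPM.

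Subunit transcripts were most abundant in the VTA (CPM scaled by trimmed mean of M values, TMM). Chrna6, which encodes the α6 binding subunit of dopaminergic neurons, had a mean of 186 CPM in vehicle VTA and at most 0.382 CPM in the other regions. Over its 23 VTA libraries of both treatments it ran from 59.8 to 235 CPM with a median of 182 CPM. It ran from 0.0984 to 0.890 CPM in Amy, from 0.0993 to 0.678 CPM in PFC, from 0 to 0.531 CPM in NAc and from 0 to 0.212 CPM in DMS, where 18 of 24 libraries had no count. No VTA library overlapped with any other region.

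Chrnb3, the accessory β3 subunit and neighbour of Chrna6, ran from 28.0 to 112 CPM in VTA with a median of 71.5 CPM. Its second level was in PFC, with 1.07 to 2.58 CPM in 24 libraries, above every library of Amy, NAc and DMS. In Amy, NAc and DMS it reached at most 0.795, 0.338 and 0.209 CPM. The order of the vehicle means was therefore VTA, PFC, Amy, NAc and DMS for Chrnb3, and VTA, Amy, PFC, NAc and DMS for Chrna6. In the latter, Amy and PFC did not differ beyond their spread (log2 fold change 0.12, SE 0.36, edgeR adjusted p = 0.788).

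**Figure D1:**
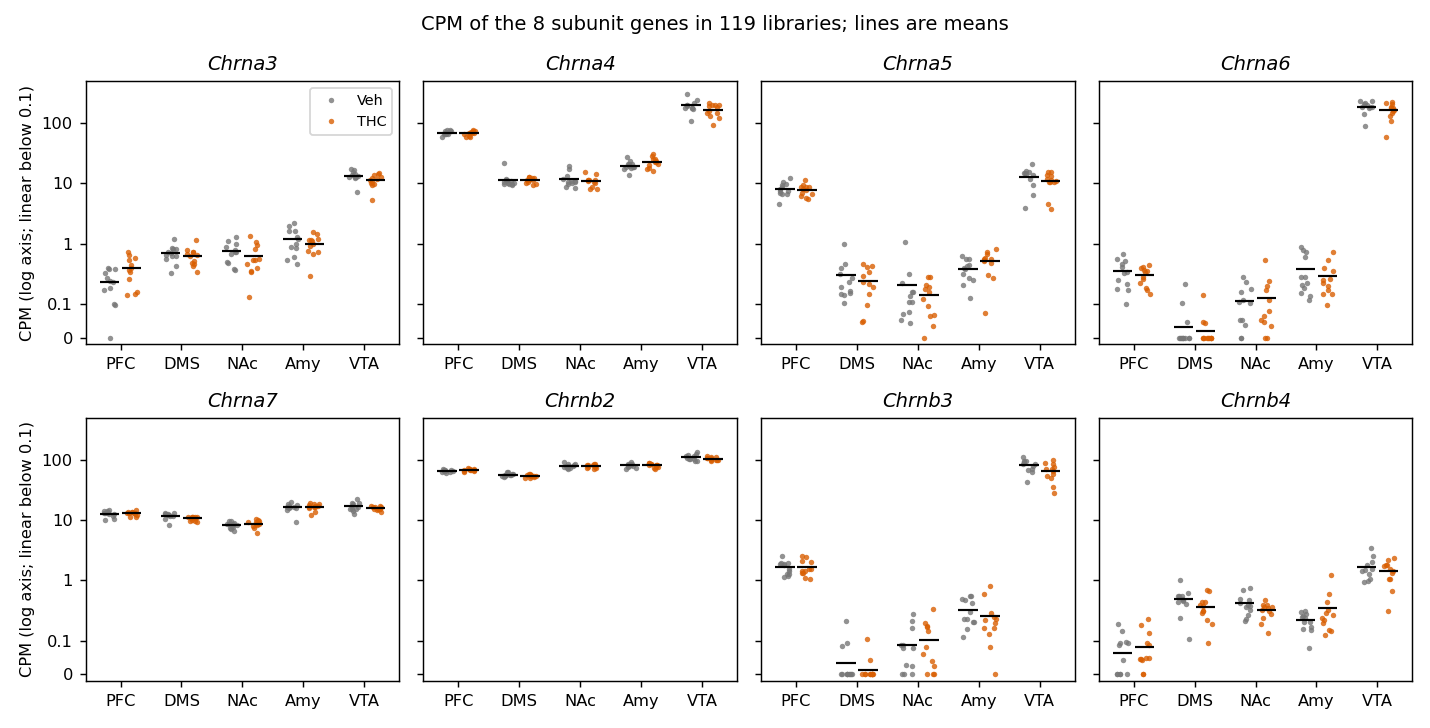
Level of each subunit gene (vertical axis, CPM on a log axis that is linear below 0.1) in PFC, DMS, NAc, Amy and VTA, with 1 point for each of 119 libraries, vehicle in grey, THC in orange and group means as lines. Chrna6 and Chrnb3 are far above the other regions in VTA, while Chrna7 and Chrnb2 vary far less.

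Chrna4, the α4 subunit of high-affinity receptors, had 2 steps. It ran from 94.8 to 304.97 CPM in VTA with a median of 186 CPM, and from 59.0 to 77.5 CPM in PFC with a median of 68.5 CPM. Amy followed with 13.6 to 31.2 CPM, DMS with 9.36 to 22.2 CPM and NAc with 8.06 to 19.3 CPM. NAc and DMS did not differ beyond their spread (log2 fold change 0.01, SE 0.13, edgeR adjusted p = 0.966).

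Chrna5, the accessory α5 subunit, also had VTA and PFC above the other regions. It ran from 3.79 to 21.2 CPM in VTA and from 4.55 to 12.2 CPM in PFC, and reached at most 1.07 CPM in the other 3 regions. VTA was above PFC by 0.69 on the log2 scale (SE 0.19, edgeR adjusted p = 0.0012), but the libraries overlapped and the difference was under the call limit of 1.

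Chrna3, the α3 subunit, followed another order although it lies next to Chrna5. It ran from 5.36 to 17.0 CPM in VTA, from 0.293 to 2.20 CPM in Amy, from 0.132 to 1.35 CPM in NAc, from 0.328 to 1.18 CPM in DMS and from 0 to 0.734 CPM in PFC. Chrnb4, the β4 subunit and the third gene of that cluster, was scarce everywhere, with 0.316 to 3.49 CPM in VTA, at most 1.22 CPM elsewhere and no count in 7 of 24 PFC libraries. In PFC, Chrna5 thus had a vehicle mean of 8.25 CPM beside 0.231 CPM for Chrna3 and 0.0620 CPM for Chrnb4. The 5 medial habenula markers summed to between 39.9 and 94.5 CPM in VTA and to between 50.7 and 80.5 CPM in PFC, and their part in the Chrna3 and Chrnb4 levels was not tested.

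Chrnb2, the β2 subunit that pairs with α4 and α6, varied far less between regions than α4 and α6. Its region means over all libraries were 107 CPM ± 10.0 in VTA (SD, n = 23), 80.9 CPM ± 5.73 in Amy, 79.3 CPM ± 5.49 in NAc, 67.3 CPM ± 2.78 in PFC and 55.6 CPM ± 2.996 in DMS (SD, n = 24 each). Amy and NAc did not differ beyond their spread (log2 fold change -0.01, SE 0.04, edgeR adjusted p = 0.782), whereas the vehicle VTA libraries all lay above those of every other region. Chrna7, the α7 subunit, ran from 6.23 CPM in a NAc library to 22.1 CPM in a VTA library. Its vehicle means were 16.9 CPM in VTA, 16.2 in Amy, 12.8 in PFC, 11.9 in DMS and 8.31 in NAc, and neither VTA and Amy nor PFC and DMS differed beyond their spread (edgeR adjusted p = 0.159 and 0.370).

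Regions were compared in the 59 vehicle libraries by edgeR's quasi-likelihood test with sex as a covariate, over 17476 genes. A gene was called at an adjusted p under 0.05 and a log2 fold change of at least 1 in size, and all 8 members passed the filter. This filter kept genes through the region where they are high. Against PFC, VTA was called higher for 5 members, beside 14.9% of all genes. Against DMS it was called higher for 6 (15.1% of all genes), against NAc for 7 (11.1%) and against Amy for 6 (8.49%). None was called lower in VTA. The vehicle libraries of VTA lay above those of NAc without overlap for 8 of 8 members (31.8% of all genes did not overlap), above those of Amy for 7 (22.8%), and above those of DMS and PFC for 6 each (39.3% and 41.3%).

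The largest of these differences was that of Chrna6, with log2 fold changes of 12.45 (SE 0.24) against DMS, 10.88 (SE 0.21) against NAc, 9.06 (SE 0.18) against PFC and 8.94 (SE 0.18) against Amy. The fold against DMS rests on 7 counts in 12 DMS libraries. Chrnb3 followed with 10.95 (SE 0.24) against DMS, on 9 counts, and 5.64 (SE 0.14) against PFC. Chrna3 was higher in VTA by 5.84 (SE 0.23) against PFC and 3.58 (SE 0.19) against Amy, and Chrna4 by 1.53 (SE 0.11) against PFC and 4.08 (SE 0.13) against NAc. Chrna5 was higher by 6.04 (SE 0.29) against NAc, and Chrnb4 by 4.63 (SE 0.33) against PFC. Vehicle PFC held only 61 counts of Chrna3 and 16 of Chrnb4, and vehicle NAc 53 of Chrna5. Chrna7 was called only against NAc, at 1.03 (SE 0.08), and fell below the limit without male vehicle VTA library FTL_369 (0.98), in females only (0.98) and with THC libraries in place of vehicle (0.85). Chrnb2 was under the limit in all 4 VTA comparisons, from 0.49 to 0.95, but was called against DMS in males only (1.03).

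PFC differed from the 3 regions other than VTA in both directions. Against PFC, Chrna4 was lower by a log2 fold change of -2.56 (SE 0.12) in DMS, -2.55 (SE 0.12) in NAc and -1.85 (SE 0.12) in Amy. Chrna5 was lower by -4.68 (SE 0.27) in DMS, -5.35 (SE 0.29) in NAc and -4.50 (SE 0.26) in Amy. Chrna3 was higher than in PFC in the same regions, by 1.58, 1.61 and 2.25, and Chrnb4 by 2.91, 2.63 and 1.74. These values rest on 61 counts of Chrna3 and 16 of Chrnb4 in 12 vehicle PFC libraries, 5 of which had no count of Chrnb4. In all, 2 members were called higher and 4 lower in DMS, beside 9.81% and 10.3% of all genes. Equal counts of 2 and 4 were called in NAc (9.64% and 7.58% of all genes), and 2 and 3 in Amy (7.96% and 5.28%).

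Among DMS, NAc and Amy fewer members were called. Amy against DMS had Chrna6 and Chrnb3 higher and Chrnb4 lower, beside 10.5% and 6.82% of all genes, and Amy against NAc had Chrna6 and Chrnb3 higher (4.32%), all of them with vehicle means under 1 CPM in those regions. NAc against DMS had no member called in edgeR (9.77% of all genes either way), with 2 of 8 at an unadjusted p under 0.05. DESeq2 called 1 there, Chrna6, beside 2464 of 24181 genes. Several calls among low members changed when THC libraries took the place of vehicle libraries: Chrna3 in DMS and NAc against PFC fell to 0.67 and 0.64, and Chrnb4 in Amy against DMS changed from -1.17 to -0.22. In Amy against NAc, Chrna6 and Chrnb3 both fell to 1.17 and were no longer called (edgeR adjusted p = 0.0711 and 0.0579), whereas Chrna4 (1.02) and Chrna5 (1.77) were called. In the same comparison males only lost Chrna6 and gained Chrna7 (1.01) and Chrnb4 (-1.05), and females only gained Chrna5 (1.55). Region and deposited table cannot be told apart between PFC or DMS and the other regions, which stand in separate tables.

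Levels of different genes were compared per kilobase (kb) of exon. In vehicle VTA, Chrna6 led with 64.1 CPM per kb ± 14.2 (SD, n = 11), followed by Chrna4 with 39.3 ± 9.68, Chrnb2 with 13.2 ± 1.47 and Chrnb3 with 12.7 ± 2.98. Chrna6 made up 45.5% ± 3.75 of the summed 8 genes there and at most 0.746% in the other regions. In PFC, Chrna4 led with 49.99% ± 1.65 of the sum, Chrnb2 gave 28.6% ± 1.74, Chrna7 10.3% ± 1.12 and Chrna5 9.48% ± 2.01 (SD, n = 12). Chrnb2 led in DMS, NAc and Amy, with 56.3%, 67.7% and 54.5%. The lead in PFC depended on the length used, since per kb of coding sequence Chrnb2 was first, with 45.3% of the sum, and Chrna4 second, with 37.8%. Chrna6 and Chrna4 were first and second in VTA under each of the 3 lengths tried.

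**Figure D2:**
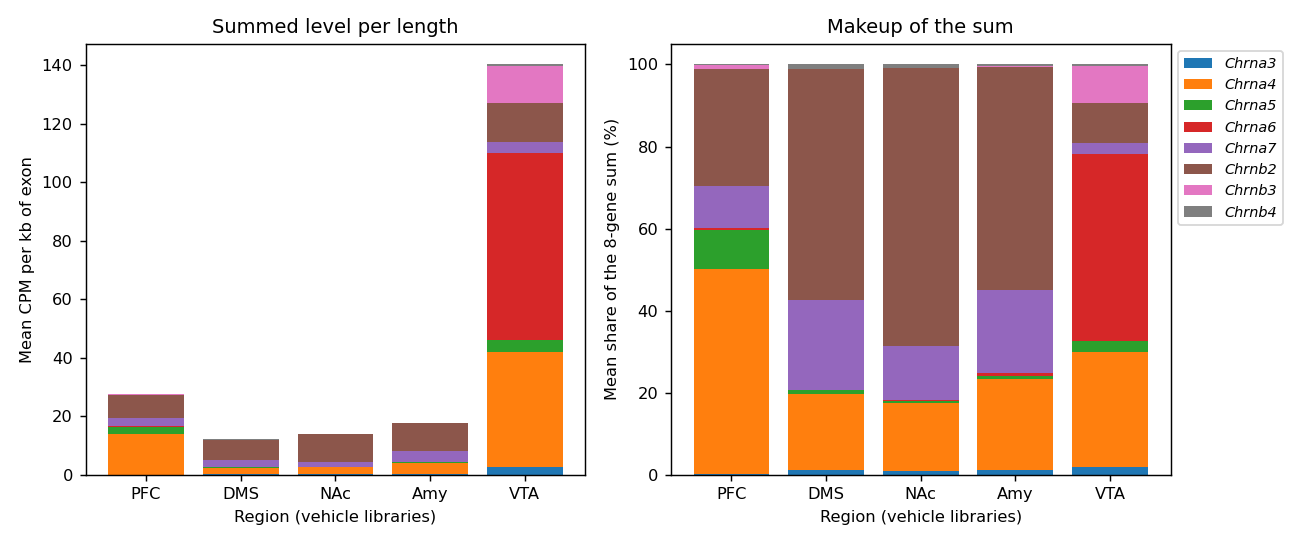
Left, mean CPM per kb of exon of the 8 genes, stacked, in the vehicle libraries of each region. Right, the mean share of each gene in the sum (%). The VTA sum is 140 CPM per kb against 12.1 to 27.6 in the other regions, and its largest part is Chrna6.

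The balance of the high-affinity pair was set out per library as the count ratio of Chrna4 to Chrnb2, which needs no scaling between libraries. This count ratio takes no account of gene length. In vehicle libraries the ratio ran from 1.13 to 2.29 in VTA (median 1.86), from 0.889 to 1.17 in PFC (median 1.04), from 0.196 to 0.305 in Amy (median 0.240), from 0.156 to 0.354 in DMS (median 0.192) and from 0.108 to 0.208 in NAc (median 0.141). VTA and PFC overlapped slightly with each other and each lay apart from Amy, DMS and NAc with no overlap. Per kb of exon, the mean vehicle ratio was 2.96 in VTA, 1.75 in PFC and at most 0.408 in the other regions. Per kb of coding sequence it was 1.41, 0.837 and at most 0.195, so which gene led in PFC depended on the length used. All 10 pairs of regions differed in a two-sided permutation test of the log2 ratio (100000 resamples). The adjusted p was 1.43e-05 for each of the 7 pairs with VTA or PFC, 2.5e-05 for Amy against NAc, 0.000967 for NAc against DMS and 0.00884 for Amy against DMS. The value of 1.43e-05 comes from an unadjusted p of 1e-05, the smallest these permutations can give. The mean ratio in THC libraries was 1.58 ± 0.313 in VTA beside 1.77 ± 0.295 in vehicle libraries, and 0.280 ± 0.0451 in Amy beside 0.244 ± 0.0317 (SD).

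Within the VTA, subunit levels varied with the dopaminergic content of the punch. The mean standardized log2 CPM of Th, Slc6a3, Slc18a2, Ddc, En1, Pitx3, Nr4a2, Aldh1a1, Ret and Foxa1 was used as a score, and group means were subtracted from it and from each member over 23 libraries. Pearson's r with the score was 0.98 for Chrnb3, 0.97 for Chrna6, 0.94 for Chrna3 and 0.86 for Chrna4. Spearman's rho was 0.98, 0.96, 0.94 and 0.86 in the same order, and each of these had an adjusted permutation p of 2e-05, from the smallest p the permutations can give. Chrna5 had r = 0.76 (adjusted permutation p = 0.000208) and rho = 0.58 (0.00605), and Chrnb2 r = 0.66 (0.00101) and rho = 0.62 (0.00386). Of 18932 genes, 2.31% had an r with the score at least as high as that of Chrnb2, and 0.475% as high as that of Chrna4.

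Chrna7 and Chrnb4 did not pass, with r = 0.39 and rho = 0.31 (adjusted permutation p = 0.0792 and 0.165) and r = 0.30 and rho = 0.11 (0.167 and 0.604). Chrnb4 was scarce, with a mean of 1.56 CPM over the 23 libraries and as few as 5 counts in a library, so a relation could be missed. The adjustment was over the 8 relations, and subtracting group means makes these p-values somewhat small. Without the 2 libraries farthest from the median score, r was 0.96 for Chrnb3, 0.96 for Chrna6, 0.89 for Chrna3, 0.88 for Chrna4, 0.53 for Chrna5 and 0.52 for Chrnb2. Without the 3 libraries of lowest score (FTL_363, FTL_371 and FTL_368) it was 0.95, 0.95, 0.91, 0.86, 0.40 and 0.52, so the Chrna5 relation rested in large part on those libraries. Chrna6 was at 59.8, 90.3 and 111 CPM in these 3 libraries and between 134 and 235 CPM in the other 20. In such bulk samples, fewer dopaminergic cells and less RNA per cell cannot be told apart.

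**Figure D3:**
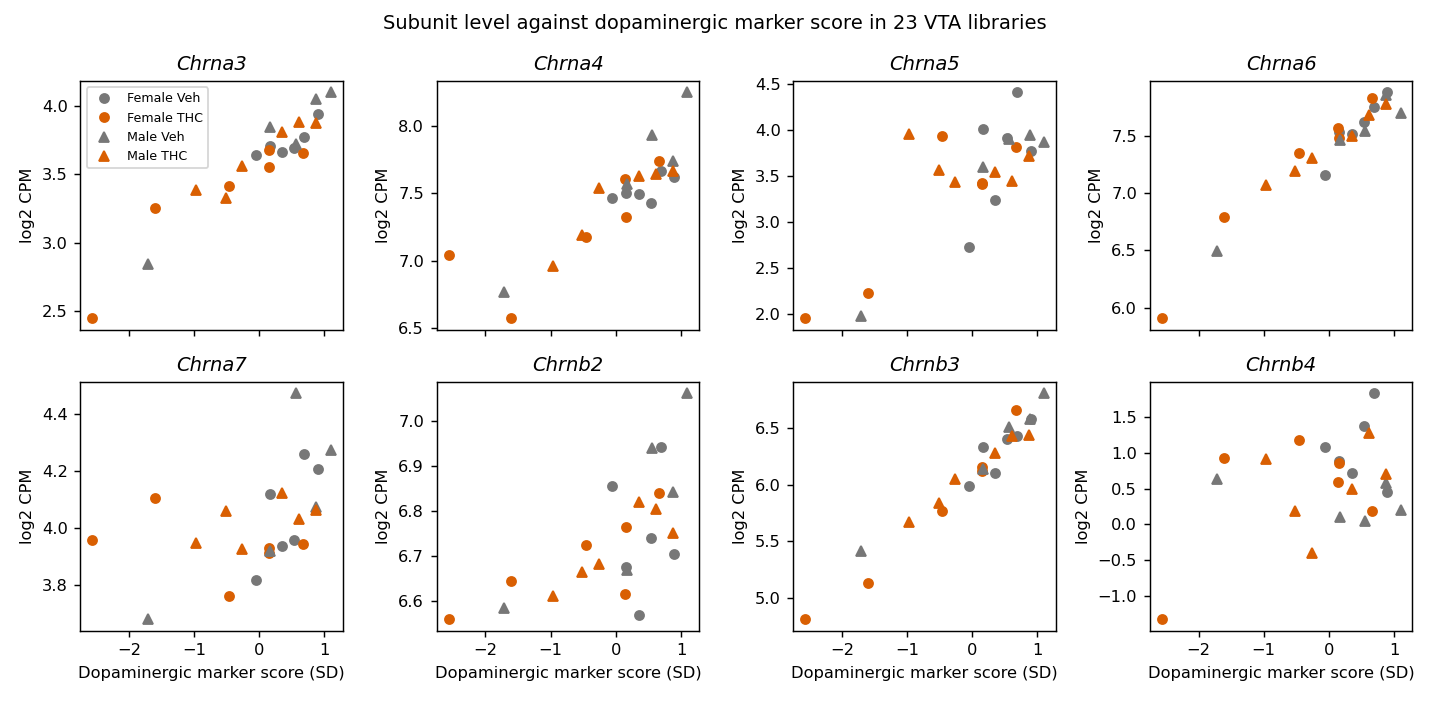
Level of each subunit (vertical axis, log2 CPM) against the dopaminergic marker score (horizontal axis, SD units) in 23 VTA libraries, circles for females, triangles for males, grey for vehicle and orange for THC. Chrna6, Chrnb3 and Chrna3 lie along a line, Chrna4 more loosely, and Chrna7 and Chrnb4 are scattered.

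Among the members themselves, 17 of 28 pairs passed in the VTA at an adjusted permutation p under 0.05 for r, all positive, with r of at least 0.47. Of all pairs of 18932 genes, 7.31% reached this r in VTA and 5.25% its negative. Without the 2 libraries farthest from the median, 7 of the 17 were under this r, such as Chrna3 with Chrna5 (0.72 to 0.38), Chrna4 with Chrna5 (0.63 to 0.34) and Chrna6 with Chrnb2 (0.56 to 0.39). The median r over the 28 pairs was 0.55. Chrna6 and Chrnb3 had r = 0.95 and rho = 0.94 (both adjusted permutation p = 5.6e-05) and 0.93 without the 2 farthest libraries. Their count ratio was 2.43 ± 0.288 (SD, n = 23), a coefficient of variation of 11.9% beside 25.8% for Chrna6 and 29.4% for Chrnb3 in CPM. Chrna3 and Chrna6 had r = 0.95, and Chrna3 and its cluster neighbour Chrnb4 had r = 0.38 (adjusted permutation p = 0.104) and rho = 0.19 (0.432). No pair with Chrnb4 passed, and its low counts could hide a relation.

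The genes most like each member within its richest region are given as a description over 23 VTA libraries that share their dissection. For Chrna6 they were Slc18a2, the vesicular monoamine transporter (r = 0.98), Trpc6, a cation channel (0.98), and Cpne7 (0.97). For Chrnb3 they were Kcnn3, a calcium-activated potassium channel (0.97), Ret, the receptor of GDNF family ligands (0.97), and Fam167a (0.97). For Chrna3 they were Clptm1l, Th, the rate-limiting enzyme of dopamine synthesis, and Slc10a4, at r = 0.97, 0.95 and 0.95. For Chrna4 they were Dlk1 (0.99), Sv2c, a synaptic vesicle protein (0.97), and Cplx1, a regulator of vesicle fusion (0.96). Chrna5 had Cnpy1 (0.90), Hoxd1 (0.89) and Hpgds (0.87), Chrnb2 had Scamp5 (0.91), Ptprn2 (0.90) and Men1 (0.88), and Chrnb4 had Il4ra (0.86), Slc30a10 (0.80) and Tmem200a (0.80).

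Over all libraries of both treatments Chrna7 had its highest mean in Amy (16.4 CPM beside 16.3 CPM in VTA), where Gabrb1, a GABA receptor subunit, Wnk3, a kinase, and Aff2 were most like it (r = 0.94, 0.94 and 0.94, 24 libraries). Over all 119 libraries, where likeness reflects region, the leading genes were Lbh, Foxa1 and Foxa2 for Chrna6 (r = 0.98, 0.97 and 0.97). They were Cast, Insig1 and Cdh20 for Chrnb3 (0.98, 0.97 and 0.97), and Igf1, Tigar and Acss2 for Chrna4 (0.97, 0.97 and 0.97). Chrna5 had Chml, Chrna4 and Lhfp (0.95 each), Chrna3 had Sncg, Eml2 and Slc6a9 (0.94, 0.93 and 0.93), and Chrnb2 had Slc6a11, Grin2d and Pigt (0.96, 0.95 and 0.95). Chrnb4 had Plpp2, Ctdsp1 and Pgm1 (0.87 each).

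THC was then compared with vehicle within each region and sex, to ask whether adolescent exposure left a change in subunit transcripts. No member was called in any of the 10 comparisons by edgeR (adjusted p under 0.05 and log2 fold change of at least 0.4 in size). The background was 1.57% of all genes in female Amy, 0.0127% in female DMS and 0% in the other 8 comparisons. Of 80 possible tests 51 passed the low-count filter. Chrna6 and Chrnb4 passed in VTA only and Chrnb3 in PFC and VTA only. Chrna5 passed in 5 of the 10 comparisons (PFC, VTA and female Amy) and Chrna3 in 8 (all but PFC). Of these 51 tests, 6 had an unadjusted p under 0.05, 1 each in female Amy, VTA, DMS, PFC and NAc and in male NAc. Of all genes, 21.9%, 9.0%, 8.9%, 5.8%, 4.6% and 16.7% had such a p in the same order of comparisons. DESeq2 called 1, Chrna4 in female Amy, and had 5 at an unadjusted p under 0.05 in its 80 tests. It called 544 of 16069 genes in that comparison. The edgeR log2 fold changes ran from -0.55 to 0.41, with 16 above and 35 below 0. Members tested in the same comparison share its libraries, so these signs are not separate observations.

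**Figure D4:**
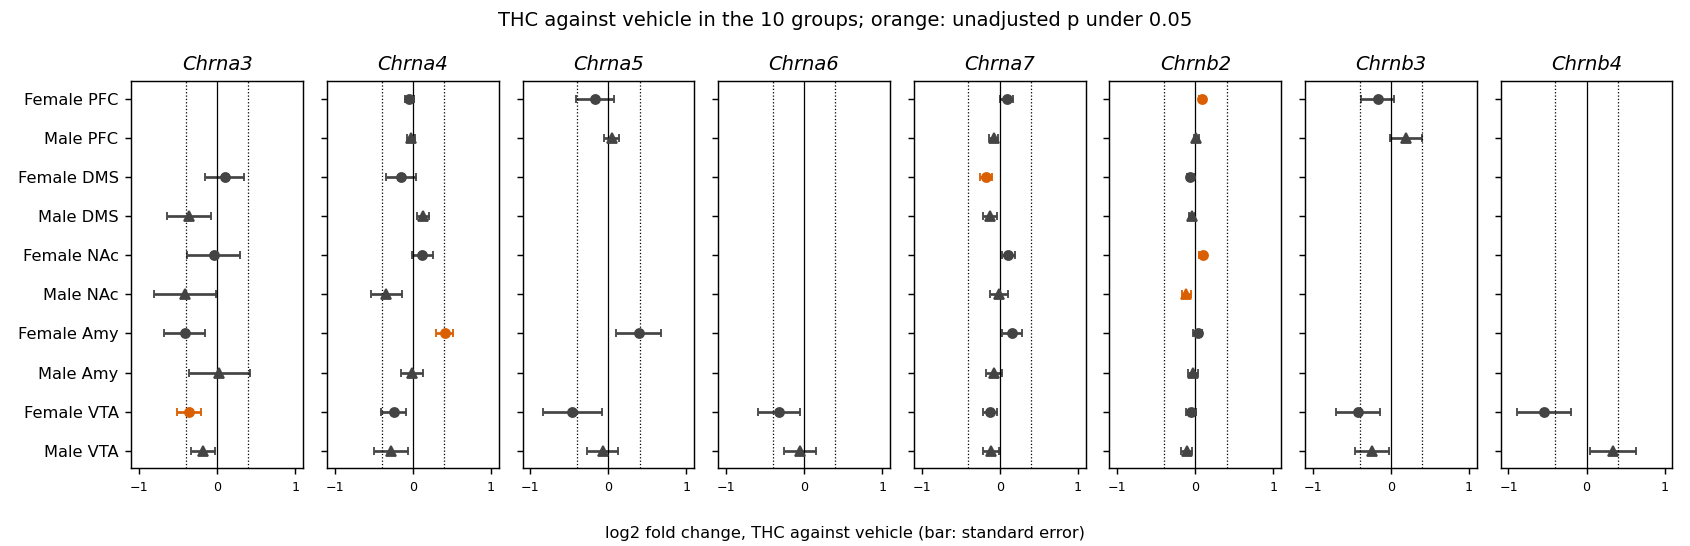
Log2 fold change of THC against vehicle (horizontal axis, bars are SE) of each subunit in the 10 groups (rows), circles for females and triangles for males, with dotted lines at 0.4 and -0.4 and orange for an unadjusted p under 0.05. Genes that did not pass the low-count filter have no point; none of the points was called.

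The smallest p was that of Chrna4 in female Amy. Vehicle libraries ran from 13.6 to 20.8 CPM with a median of 19.7 CPM, and THC libraries from 20.5 to 31.2 CPM with a median of 24.7 CPM. The groups overlapped narrowly, whereas those of 4.34% of all genes did not overlap. The log2 fold change was 0.41 (SE 0.11), with an edgeR adjusted p of 0.0669 and an unadjusted p of 0.00251. In this comparison 21.9% of all genes had an unadjusted p under 0.05. DESeq2, the tool of the study's own comparison, called it, at 0.41 with an adjusted p of 0.0153. In this comparison DESeq2 called 544 of 16069 genes. Without library FTL_344, whose sex genes go against its label, it was 0.42 with an edgeR adjusted p of 0.107, and without female THC library FTL_343 it was 0.45 with an edgeR adjusted p of 0.0440, past the call rule.

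Listed markers of cell populations also differed in this comparison. The 7 cortical and basolateral amygdala projection neuron markers summed to between 680 and 976 CPM in female vehicle Amy and to between 1038 and 1401 CPM in female THC Amy, with 4 of 7 called higher beside 1.09% of all genes. The 9 hypothalamus and medial amygdala markers summed to between 521 and 632 CPM in vehicle and to between 341.7 and 499.7 CPM in THC libraries, with 2 of 9 called lower beside 0.476% of all genes. With the difference of the 2 standardized marker scores as a covariate, the Chrna4 log2 fold change was 0.07 (SE 0.27), with an edgeR adjusted p of 1.00. The score had no overlap between the female groups, so treatment and score cannot be told apart there. Over the 24 Amy libraries with group means subtracted, Chrna4 had r = 0.16 and rho = 0.25 with the score (adjusted permutation p = 0.63 and 0.352), r = 0.22 without the 2 farthest libraries and r = 0.08 without libraries FTL_344 and FTL_356. Of the 4 members compared with this score, only Chrna3 had an adjusted permutation p under 0.05, and for r only. It had r = -0.51 (adjusted permutation p = 0.0424) and rho = -0.50 (0.0596). Its r was -0.35 without the 2 farthest libraries and -0.58 without libraries FTL_344 and FTL_356. Chrna7 and Chrnb2 had r = -0.10 and -0.13 (adjusted permutation p = 0.63 each).

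**Figure D5:**
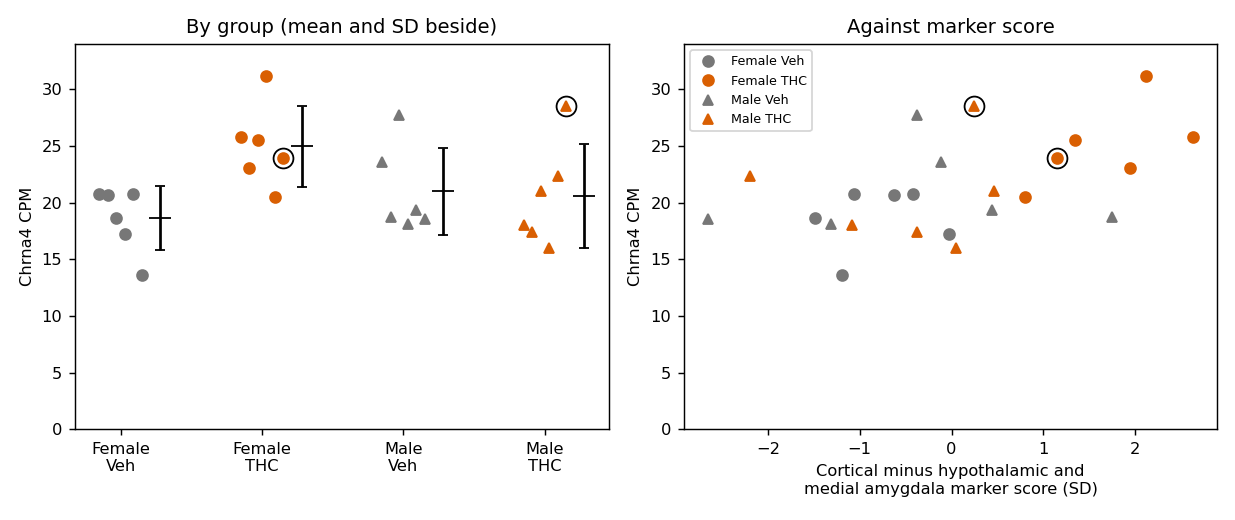
Chrna4 level (CPM) in Amy libraries by group with mean and SD (left), and against the difference of cortical and basolateral amygdala markers from hypothalamus and medial amygdala markers (right, SD units). Rings mark libraries FTL_344 and FTL_356, whose sex genes go against the label; female THC libraries lie between 20.5 and 31.2 CPM and all lie to the right of the female vehicle libraries in score.

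In male Amy, Chrna4 ran from 18.1 to 27.7 CPM in vehicle (median 19.0) and from 15.99 to 28.5 CPM in THC libraries (median 19.5), an overlap that 0.0783% of all genes lacked. The highest of these, 28.5 CPM, is library FTL_356, and the next is 22.4 CPM. The log2 fold change was -0.01 (SE 0.14), with an edgeR adjusted p of 1.00, and -0.12 (SE 0.12) without that library, with an edgeR adjusted p of 0.998. The male and female effects differed by -0.41 (SE 0.19), with an edgeR unadjusted p of 0.0371 and an adjusted p of 0.296, so a sex difference was not called. Without libraries FTL_344 and FTL_356 the difference was -0.54, with an adjusted p of 0.196. The 4 other members tested in female Amy did not reach an unadjusted p of 0.05, with log2 fold changes from -0.42 for Chrna3 (SE 0.27) to 0.39 for Chrna5 (SE 0.28), and from -0.45 (SE 0.29) to 0.39 (SE 0.31) for the same genes without library FTL_344.

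In female VTA, all 8 members had negative log2 fold changes and none was called. These signs are not separate observations, since the median r over the 28 member pairs in VTA was 0.55. Chrna3 ran from 12.4 to 15.2 CPM in vehicle (median 12.9) and from 5.36 to 12.7 CPM in THC libraries (median 11.1). Its log2 fold change was -0.36 (SE 0.16), with an edgeR unadjusted p of 0.0354 and an adjusted p of 0.522. Here 9.0% of all genes had an unadjusted p under 0.05. The log2 fold changes of the other members ran from -0.55 for Chrnb4 (SE 0.34) to -0.06 for Chrnb2 (SE 0.06), with -0.32 for Chrna6 (SE 0.27) and -0.42 for Chrnb3 (SE 0.28).

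The dopaminergic markers summed to between 3881 and 5583 CPM in female vehicle VTA and to between 1893 and 5414 CPM in female THC VTA, where libraries FTL_363 and FTL_368 were low. With the dopaminergic score as a covariate, the log2 fold changes were -0.05 for Chrna3 (SE 0.11), 0.16 for Chrna6 (SE 0.07) and 0.05 for Chrnb3 (SE 0.08). Chrna7 was at -0.13 (SE 0.11) and Chrnb4 at -0.25 (SE 0.41). Chrna4, Chrna5 and Chrnb2 were at -0.01 (SE 0.12), 0.10 (SE 0.29) and 0.003 (SE 0.07). None was called, and Chrna6 then had an unadjusted p of 0.0420 with an edgeR adjusted p of 0.857. Without library FTL_363 Chrna3 was at -0.22 with an edgeR adjusted p of 0.826. In male VTA the members ran from -0.28 for Chrna4 (SE 0.22) to 0.34 for Chrnb4 (SE 0.30), and 7 of 8 were below 0. With the score as a covariate they ran from -0.14 for Chrna4 (SE 0.08) to 0.38 for Chrnb4 (SE 0.32), and none was called.

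Chrnb2 had an unadjusted p under 0.05 in 3 comparisons with small SEs. In female PFC it ran from 61.6 to 67.6 CPM in vehicle (median 64.8) and from 66.5 to 72.9 CPM in THC libraries (median 68.3), with a log2 fold change of 0.08 (SE 0.03, edgeR adjusted p = 0.836). In female NAc it ran from 70.8 to 79.96 CPM in vehicle (median 74.9) and from 76.4 to 85.9 CPM in THC libraries (median 80.2), with 0.09 (SE 0.04, edgeR adjusted p = 0.991). In male NAc it ran from 78.3 to 93.2 CPM in vehicle (median 83.5) and from 70.5 to 86.1 CPM in THC libraries (median 75.8), with -0.11 (SE 0.05, edgeR adjusted p = 0.295). The groups overlapped in each. Of all genes, 5.8%, 4.6% and 16.7% had an unadjusted p under 0.05 in the same order of comparisons. The sex difference of the effect in NAc was -0.21 (SE 0.07), with an unadjusted p of 0.00555 and an edgeR adjusted p of 0.385.

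Chrna7 in female DMS ran from 10.4 to 13.03 CPM in vehicle (median 12.4) and from 9.57 to 11.4 CPM in THC libraries (median 11.0), with a log2 fold change of -0.18 (SE 0.07, edgeR adjusted p = 0.494). There 8.9% of all genes had an unadjusted p under 0.05. With both sexes in the fit Chrna7 in DMS was -0.15 (SE 0.06, unadjusted p = 0.0188, edgeR adjusted p = 0.970), and Chrna3 in VTA was -0.27 (SE 0.12, unadjusted p = 0.0326, edgeR adjusted p = 0.466). No member was called with both sexes (0% of all genes in each region), for the interaction (0.0059% in Amy and 0% elsewhere) or between sexes (0.0118% in Amy to 2.64% in DMS). Of 29 tests in each of these 3 families, 2 had an unadjusted p under 0.05. Between males and females they were Chrna4 in PFC, at -0.10 in males against females (SE 0.04, unadjusted p = 0.0156), and Chrnb2 in DMS, at -0.06 (SE 0.03, unadjusted p = 0.0443).

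The size of change that could have been seen differed among members. The median SE of the THC effect over the comparisons tested was 0.05 for Chrnb2, 0.09 for Chrna7, 0.14 for Chrna4, 0.24 for Chrna6 and 0.32 for Chrnb4. Chrna6 and Chrnb4 outside VTA, and Chrnb3 outside VTA and PFC, did not pass the low-count filter within a region and sex. Neither did Chrna5 in DMS, NAc and male Amy, nor Chrna3 in PFC. Without the filter, the SE reached 1.11 for Chrna6, 1.29 for Chrnb3 and 0.85 for Chrnb4, and no member was called. Chrnb3 in female DMS, at -3.34 (SE 1.29, unadjusted p = 0.0162, edgeR adjusted p = 0.662), and Chrna3 in male PFC, at 0.92 (SE 0.40, unadjusted p = 0.0240, edgeR adjusted p = 0.777), then also had an unadjusted p under 0.05.

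The remaining nicotinic genes and the genes that serve the receptors were read from lists. Of 8 other subunits, Chrna2 and Chrna10 passed the filter. Chrna2, a further α subunit, had a vehicle mean of 5.47 CPM ± 1.53 in Amy and ran from 0.0817 to 20.1 CPM in vehicle VTA. Chrna10 was highest in Amy, at 2.33 CPM ± 0.676, and NAc, at 1.70 CPM ± 0.572. Neither was called for THC where it was tested, and the smallest p was that of Chrna2 in male VTA (log2 fold change 3.45, SE 1.39, edgeR unadjusted p = 0.0339, adjusted p = 0.819).

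Of 8 assembly factors and modulators, all passed the filter. Lypd1 and Ly6h, prototoxin-like proteins of the Ly6 family, had their highest vehicle means in Amy, at 362.5 CPM ± 73.6 and 412 CPM ± 94.3, and Tmem35a, the chaperone of α7, at 92.9 CPM ± 7.36. Lynx1, a brake on nicotinic receptors, was highest in PFC at 493 CPM ± 26.4, and Ric3, an assembly factor, ran only from 77.8 CPM in DMS to 102 CPM in PFC. VTA had 3 of the 8 called lower than in Amy, namely Tmem35a (log2 fold change -1.15, SE 0.05), Lypd1 (-2.05, SE 0.11) and Ly6h (-1.32, SE 0.09), and none higher, beside 8.38% and 8.49% of all genes. These are the 3 genes with their highest means in Amy. Their vehicle means in VTA were 40.1, 85.7 and 160 CPM in the same order. They were 40.1, 64.9 and 151 CPM in PFC, 38.0, 77.7 and 125 CPM in DMS, and 54.1, 243 and 290 CPM in NAc. Other genes of this list differed between VTA and other regions in both directions. Lynx1 had a vehicle mean of 383 CPM in VTA and 177 CPM in NAc. Lypd6b had 7.43 CPM in VTA and 1.81 CPM in DMS, and Lypd6 had 6.83 CPM in VTA and 36.2 CPM in PFC. In THC comparisons none of the 8 was called, and the number with an unadjusted p under 0.05 was at most 5, in male NAc, followed by 4 in female Amy, where 16.7% and 21.9% of all genes had such a p.

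The genes that make and carry acetylcholine were highest in DMS, and those that break it down in VTA. Chat, which makes acetylcholine, had vehicle means of 27.8 CPM ± 4.29 in DMS and 18.5 CPM ± 4.96 in NAc, against 0.837 CPM ± 0.452 in VTA and 0.302 CPM ± 0.212 in PFC. Slc5a7, the choline transporter, had 48.4 CPM ± 7.71 in DMS and 2.40 CPM ± 0.740 in VTA. Ache, which breaks acetylcholine down, was highest in VTA at 262.2 CPM ± 23.5 and lowest in PFC at 63.6 CPM ± 2.896. None of the 6 genes of this list was called for THC in any of the 10 comparisons, and 1 of them, Bche in male PFC, had an unadjusted p under 0.05.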

How the data were processed

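Brain punches were sequenced as polyA-selected, stranded libraries. Per the labels and the study's methods, the authors trimmed reads with cutadapt 2.9, aligned them with STAR 2.7.3a to mm10 and deposited gene-level expected counts estimated with RSEM 1.3.1 in 2 tables. The gene annotation was not given in the sources used here. About 5.00% of values in the NAc, Amy and VTA table and 4.75% in the PFC and DMS table were not whole, and all were rounded. Groups came from sample titles, no column was left out, and no libraries had identical values. The members and gene lists were chosen with earlier results of these data known.

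Genes were filtered by edgeR's filterByExpr, scaled by TMM and tested by the quasi-likelihood test of edgeR 4.0.16 with Benjamini-Hochberg adjustment over all genes tested, using DESeq2 1.42.0 as an alternative. SE was taken as the absolute log2 fold change divided by the root of F. The fits were tested on simulated data. CPM used all 119 libraries, and log2 values were taken after a prior count of 2. Ratios added 0.5 to each count. Exon lengths and gene positions came from GENCODE M21 (GRCm38). All 8 members were named. In THC comparisons full values were given for members with an unadjusted p under 0.05, and the 3 genes with the highest r were named for each. Those of Chrna7 over all libraries are not reported here. From the other lists, called genes were named only for the assembly factors and modulators in VTA against Amy. Called marker genes in female Amy were counted but not named. Calls of listed genes in the other region comparisons are not reported here. Levels of other listed genes, the Chrna4 to Chrnb2 ratio and the relations with the marker scores were added after seeing the data. Libraries of a group come from separate mice, and p-values between regions do not account for mice that gave several regions. Leave-out alternatives and the limits set by depth are given below, and no fit at equal depth was run. Precision rests on 3090998 to 77042133 counts per library, and errors cover these libraries only.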

Additional observations from a re-analysis of the deposited data

Results flagged for a closer look

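Over 91 combinations of member and group with a mean of at least 1 CPM, 6 held a library far from the others of its group by Dixon's test, and chance alone would give about 4.55. In female vehicle DMS, library FTL_285 had Chrna4 at 22.2 CPM, against 11.9 CPM for the next. In male vehicle VTA, library FTL_371, the shallowest of all, had Chrna5 at 3.85 CPM, against 12.1 CPM. Chrna7 stood apart in 3 groups: female THC PFC library FTL_269 at 11.2 CPM (next 13.3), male vehicle DMS library FTL_301 at 8.25 CPM (next 11.6) and male vehicle Amy library FTL_347 at 19.8 CPM (next 17.1). Chrnb2 in female THC Amy library FTL_343 was at 71.2 CPM (next 80.9), and this is the library without which Chrna4 was called in that comparison.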

How the results depend on the processing

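The number of members called was 0 in the 25 comparisons of treatment, interaction and sex, and moved in 2 settings, both in female Amy: DESeq2 called 1 and so did the fit without THC library FTL_343 (the range over libraries left out was 0 to 1). There the Chrna4 log2 fold change ran from 0.33 to 0.45 with edgeR adjusted p from 0.0440 to 0.159. Among regions, DMS against PFC had 3 members called in the table of those regions alone, against 6, where 5 of the 8 members passed the filter. NAc against DMS had 1 called by DESeq2, 1 with THC libraries and 1 with females only, against 0. The other alternatives left the counts of calls within 1.5 times. Among the 8 members in the region comparisons, 11 calls were lost and 11 gained over the alternatives. These totals count only fits in which the member passed the filter. THC libraries in place of vehicle gave 6 and 4, males only 3 and 3, and females only 1 and 3. A count of calls can thus stay alike while its members differ. None of the called values changed direction. Chrnb2 in PFC was at 62.2 CPM without TMM scaling, against 67.3 CPM. No paired analysis was possible because the labels do not say which libraries share a mouse. Depth limits Chrna6 and Chrnb4 outside VTA and Chrnb3 outside VTA and PFC, where few counts were available. It also limits Chrna5 in DMS, NAc and male Amy, and Chrna3 in PFC.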
